A study of Mus musculus with 4 samples.

Results

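Cytosolic and mitochondrial heat shock genes were examined in induced hepatocyte-like (iHep) cells, hepatocyte-like cells made from another cell type. The set holds 10 genes: Hspa1a, Hspa1b, Hspa8, Hsph1, Dnajb1, Hsp90aa1, Hspb1, Hspd1, Hspe1 and Bag3. Its members were every probe of the array whose gene name in the scanner files is one of these symbols, which gave 16 probes of 41174. No older alias was needed. Hspa1a, Hspa1b, Hspa8, Dnajb1, Hspd1 and Bag3 had 2 probes each, and the other 4 genes had 1. All 16 probes were well above background on all 4 arrays, so all 10 genes are among the 16450 genes tested.

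The cells were of strain C57BL/6 and, per the labels, derived from cells called MDFs. Cells of 2 independent preparations, iHep-1 and iHep-2, were each grown in 2D and in 3D culture, with 1 array per preparation and culture, so there were 2 arrays per culture. A plus sign follows the preparation's name in the titles of the 2D samples only, and what it marks cannot be told apart from culture. A level is given as log2 of the background-corrected signal minus the array's 75th percentile, so that 0 is the 75th percentile of that array. With 4 arrays the precision is limited, and p-values measure the spread between these 4 samples.

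Heat shock proteins are chaperones that help other proteins to fold. In the cytosol, HSP70 proteins bind and release unfolded stretches with the help of J-domain proteins and nucleotide exchange factors, HSP90 acts on nearly folded clients, and small heat shock proteins hold misfolded ones. Mitochondria have a chaperonin of their own, built from HSP60 and HSP10. Under stress, the factor HSF1 binds inverted repeats of nGAAn in the promoters of many of these genes and induces them, while others, such as Hspa8, are made at a high level in unstressed cells. Hepatocytes make and secrete large amounts of protein, which calls for abundant chaperones.

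Sequences were looked at first, because they decide which of the members the array can tell apart and which share a promoter element. Hspa1a and Hspa1b are neighbouring copies that encode nearly the same inducible HSP70. Both probes named Hspa1b list accessions of Hspa1a and of Hspa1b in the file, so their signal cannot be assigned to either copy. These are shown because they are the probes whose reading is uncertain, with positions on mouse genome build mm9, minus strand; where in the gene model they lie was not analysed here:
Hspa1b tested probe, chr17:35094200-35094259: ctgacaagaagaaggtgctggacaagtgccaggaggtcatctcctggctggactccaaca
Hspa1b other probe, chr17:35095608-35095667: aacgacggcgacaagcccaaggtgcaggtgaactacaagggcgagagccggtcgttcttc
Each of the probes named Hspa1a, by contrast, lists an accession of Hspa1a alone. They lie at chr17:35106766-35106825 and chr17:35106796-35106855 of mm9 and overlap by 30 bases, so they are not independent measurements:
Hspa1a stretch in both probes: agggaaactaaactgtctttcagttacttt

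Promoter windows, the 250 bases before an annotated start, came from RefSeq (GRCm38.p6). They matched 8 of the 10 genes, with 11 windows, and Hspa8 and Hsp90aa1 had none. The pairs of inverted units GAANNTTC and TTCNNGAA, each its own reverse complement and so read on both strands, were searched, and matches may overlap. A pair was found in 6 of the 8 member genes (75%) and in 14.5% of 26994 genes with a window. Of the single windows, 7 of 11 of the members' held a pair, against 12.8% of 32817. A run of 3 alternating units, in which a pair of each kind shares its middle unit, was found in Hspd1 and Hspe1 among the members and in 0.515% of genes. The member counts are not of independent windows. Hspd1 and Hspe1 are counted for the same run, the windows of Hspa1a and Hspa1b share 247 of 250 bases, and those of Hsph1 hold the same match. A match is a description of letters and not evidence of a bound factor.

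The windows shown belong to the gene with the widest range of levels over the 4 arrays, Hspa1a, and to Hspb1, whose level differed between cultures in 1 preparation. The 30 bases that follow are shared by the mitochondrial pair Hspd1 and Hspe1, whose starts face away from each other. Capitals mark matches to the unit pairs, and each line runs 5′ to 3′, on the minus strand for Hspa1a and the plus strand for the others:
Hspa1a, chr17:34972157-34972406: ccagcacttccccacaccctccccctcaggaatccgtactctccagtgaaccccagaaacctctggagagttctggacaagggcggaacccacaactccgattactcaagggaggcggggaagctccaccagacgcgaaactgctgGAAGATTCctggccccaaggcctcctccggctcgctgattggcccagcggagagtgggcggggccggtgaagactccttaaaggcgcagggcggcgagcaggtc
Hspb1, chr5:135887669-135887918: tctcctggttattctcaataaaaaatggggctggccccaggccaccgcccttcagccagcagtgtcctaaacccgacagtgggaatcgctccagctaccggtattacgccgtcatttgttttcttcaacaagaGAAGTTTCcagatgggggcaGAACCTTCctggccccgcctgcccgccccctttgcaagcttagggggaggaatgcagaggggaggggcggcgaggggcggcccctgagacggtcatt
Hspd1 and Hspe1, chr1:55088053-55088082: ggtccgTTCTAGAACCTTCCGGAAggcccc
In Hspa1a the match GAAGATTC begins 104 bases before the start. The window of Hspa1b has the same match at the same distance, and 247 of its 250 bases are those of Hspa1a. Hspb1 has the matches GAAGTTTC and GAACCTTC, 117 and 97 bases before its start. The stretch between the mitochondrial genes holds 3 overlapping pairs in 18 bases. It begins 89 bases before the start of Hspe1 and, read on the other strand, 144 bases before a start of Hspd1. Hsph1 has TTCTCGAA, 54 or 33 bases before its 2 annotated starts, and no pair was found in the windows of Bag3 and Dnajb1, which says only that these letters are not there.

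Across the arrays, heat shock genes were brighter in 3D than in 2D in both preparations for Hspa1a, Hspa1b, Bag3 and Dnajb1, dimmer in both for Hsp90aa1, Hspd1 and Hspe1, and of opposite sign for Hspa8, Hsph1 and Hspb1. Other scalings gave Hspa8 the same sign in both preparations, and 2 of them gave Hspe1 opposite signs. Hspa1a and Hspa1b had the largest differences of the set, with mean log2 differences of 1.68 ± 1.43 and 1.63 ± 1.29 (SE, n = 2 per culture), and both were also higher in iHep-1 than in iHep-2 within each culture. None of the 10 differences between cultures passed the test (limma, adjusted p from 0.704 for Bag3 to 0.968 for Hsph1). With each array scaled to its spike-in control probes instead of its own signals, only Hspa1a and Hspa1b were still higher in 3D in both preparations, and the mean differences of Bag3, Dnajb1, Hspb1, Hspa8 and Hsph1 turned negative.

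**Figure D1:**
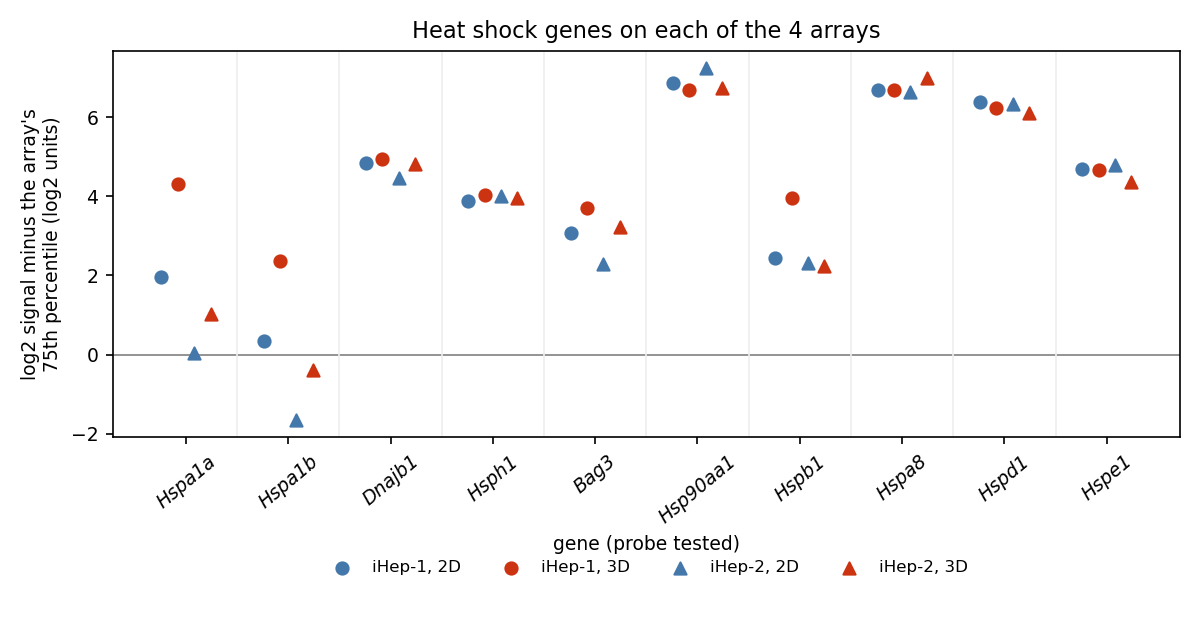
Level of each heat shock gene (tested probe) on the 4 arrays, as log2 signal minus the array's 75th percentile; circles are iHep-1, triangles iHep-2, blue 2D and red 3D. Hspa1a and Hspa1b span 4.28 and 4.01 log2 units over the arrays, with iHep-1 in 3D highest, while Hsph1 spans 0.13. Levels of different genes come from different probes and are not comparable with each other.

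The inducible HSP70 genes come first. In iHep-1, the level of Hspa1a was 1.95 in 2D culture and 4.31 in 3D, and in iHep-2 it was 0.03 and 1.04. The 3D array was the higher in each preparation, and iHep-1 in 3D stood far above the other 3, but the cultures overlapped, because iHep-1 in 2D exceeded iHep-2 in 3D. The 3D over 2D ratio was 5.11-fold in iHep-1 and 2.01-fold in iHep-2 (log2 differences 2.35 and 1.004). The mean difference of 1.68 had a 95% interval from -2.49 to 5.85 (limma, adjusted p = 0.780). Leaving out the 3D array of iHep-1 brought it to 0.04, and leaving out the 3D array of iHep-2 brought it to 3.31. Without the 2D array of iHep-1 it was 2.64, and without that of iHep-2 it was 0.72. These fits had no block, so the single array left in a culture was compared with both preparations of the other. Their means thus include the difference between preparations, and the size rested on which arrays were compared. The differences within each preparation stayed 2.35 and 1.004. The other Hspa1a probe differed from the tested one by 0.02 in its mean difference.

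The Hspa1b probe, which cannot be assigned to 1 copy, was at 0.35 in 2D culture and 2.36 in 3D culture of iHep-1, and at -1.65 and -0.39 in iHep-2. Its order over the arrays was that of Hspa1a, and the cultures again overlapped through iHep-1 in 2D. The ratios of 3D to 2D were 4.02-fold and 2.38-fold in iHep-1 and iHep-2 (log2 differences 2.01 and 1.25), with a mean of 1.63 and a 95% interval from -2.11 to 5.38 (limma, adjusted p = 0.770). Over the 4 fits that left out 1 array each, again unpaired, the mean ran from 0.25 without the 3D array of iHep-1. It reached 3.01 without the 3D array of iHep-2. It was 2.63 without the 2D array of iHep-1 and 0.63 without that of iHep-2. The other Hspa1b probe was far dimmer, yet its differences of 1.77 and 1.19 had the same sign. Both genes were at least 1 log2 unit higher in 3D in both preparations, as were 4.26% of all genes tested (700 genes). Hspa1a passed that bound in iHep-2 narrowly (1.004), and its value there was 0.95 with normexp, 0.99 under quantile normalization, 0.98 in the authors' series table and 0.43 with spike-in scaling, all short of it. Of all genes, 329 passed with normexp and 146 with spike-in scaling, under which Hspa1b was short of it too. Because the Hspa1b probes also list Hspa1a, these are not 2 independent observations.

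Bag3 encodes a nucleotide exchange factor that links HSP70 to autophagy and is itself a heat shock gene. The 2D levels were 3.07 in iHep-1 and 2.28 in iHep-2, and the 3D levels were 3.70 and 3.22. Both 3D arrays lay above both 2D arrays. By the tested probes, Bag3 was the only member brighter in 3D whose cultures did not overlap, a pattern found in 19.8% of all genes. For Bag3 it ended with spike-in scaling and in the authors' series table. The log2 differences were 0.63 and 0.94, with a mean of 0.78 ± 0.40 (SE) and a 95% interval from -0.38 to 1.95 (limma, adjusted p = 0.704). Leaving out 1 array at a time, again unpaired, gave means between 0.39, without the 2D array of iHep-2, and 1.18, without that of iHep-1. The 60 bases of the second Bag3 probe span 5967 bases of the genome and so cross an intron, and this probe differed from the first by 0.06 in its mean difference. With spike-in scaling the difference was -1.20 in iHep-1 and 0.36 in iHep-2.

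Dnajb1 encodes the J-domain protein that delivers clients to HSP70 and, in turn, feeds back on HSF1. Its levels were 4.83 and 4.95 in 2D and 3D of iHep-1, and 4.47 and 4.82 in iHep-2. The 2D array of iHep-2 was the lowest and the other 3 lay close together, so the cultures overlapped. The log2 differences of 0.11 and 0.35 had a mean of 0.23 ± 0.25 (SE), smaller than its error (limma, adjusted p = 0.822). The second probe gave 0.26 and 0.49. Its levels were 1.21 and 1.47 in 2D and 3D of iHep-1 and 1.05 and 1.55 in iHep-2. By this probe the cultures did not overlap, with 3D higher. Hsph1 encodes the HSP110 protein, which exchanges nucleotide on HSP70. It was at 3.90 and 4.03 in 2D and 3D of iHep-1 and at 4.02 and 3.97 in iHep-2. All 4 arrays lay within 0.13 log2 units, the narrowest range of the set. The mean difference was 0.04, with a 95% interval from -0.57 to 0.65 (limma, adjusted p = 0.968), and its sign was negative under quantile normalization, spike-in scaling and the authors' series table.

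Hspb1 encodes the small heat shock protein HSP27 or HSP25, which holds unfolded proteins and binds actin. It was at 2.44 in 2D culture and 3.97 in 3D culture of iHep-1, and at 2.32 and 2.23 in iHep-2. Only iHep-1 in 3D stood apart, and the other 3 arrays lay close together. The ratio of 3D to 2D was 2.88-fold in iHep-1 and 0.941-fold in iHep-2, so the log2 differences, 1.52 and -0.09, had opposite signs. With 1 array per preparation and culture, whether the preparations differ in this could not be tested. The mean was 0.72 ± 0.68 (SE) with all arrays (limma, adjusted p = 0.798). In the unpaired fit without the 3D array of iHep-1 it was -0.15. By the tested probes, that array also had the highest levels of Hspa1a, Hspa1b, Bag3 and Dnajb1. For Hsph1 it was highest narrowly (4.027, against 4.024 in 2D of iHep-2). It was not the highest for Hspa8, Hsp90aa1, Hspd1 and Hspe1. The second Dnajb1 probe was highest in 3D of iHep-2, at 1.55 against 1.47 in 3D of iHep-1.

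Hsp90aa1, the stress-inducible form of cytosolic HSP90, did not share the sign of the inducible HSP70 genes. The 2D levels were 6.88 in iHep-1 and 7.24 in iHep-2, and the 3D levels were 6.70 and 6.73. Both 3D arrays lay below both 2D arrays, as in 21.5% of all genes, and were nearly equal. The log2 differences were -0.18 and -0.51, and their mean was -0.35 with a 95% interval from -1.06 to 0.37 (limma, adjusted p = 0.751). Hspa8 encodes HSC70, the constitutive HSP70 of the cytosol that also uncoats clathrin vesicles. It was at 6.71 and 6.68 in 2D and 3D of iHep-1 and at 6.65 and 7.003 in iHep-2. The 3D array of iHep-2 was the highest and the other 3 lay close together, so the difference was -0.02 in iHep-1 and 0.36 in iHep-2. The opposite sign was seen with the 75th percentile alone. The differences were 0.0055 and 0.31 with normexp, 0.12 and 0.089 under quantile normalization, 0.11 and 0.093 in the authors' series table, and -1.85 and -0.22 with spike-in scaling. The mean of 0.17 had a 95% interval from -0.53 to 0.86 (limma, adjusted p = 0.872), and the second probe gave -0.18 and 0.26.

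The mitochondrial pair was lower in 3D in both preparations with the 75th percentile, but in iHep-1 Hspe1 was 0.021 higher under quantile normalization and 0.018 higher in the authors' series table. Hspd1, which encodes HSP60, had levels of 6.39 and 6.24 in 2D and 3D of iHep-1 and of 6.33 and 6.11 in iHep-2. Both 3D arrays lay below both 2D arrays. The log2 differences were -0.16 and -0.23, the mean was -0.19 ± 0.21 (SE), and the second probe gave -0.15 and -0.38 (limma, adjusted p = 0.827). Hspe1 encodes HSP10, the lid of that chaperonin. Its levels were 4.69 and 4.68 in 2D and 3D of iHep-1 and 4.805 and 4.37 in iHep-2. The cultures did not overlap, but the arrays of iHep-1 were nearly equal, and nearly all of the difference came from iHep-2. The mean was -0.22 ± 0.24 (SE), with a 95% interval from -0.91 to 0.47 (limma, adjusted p = 0.821).

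**Figure D2:**
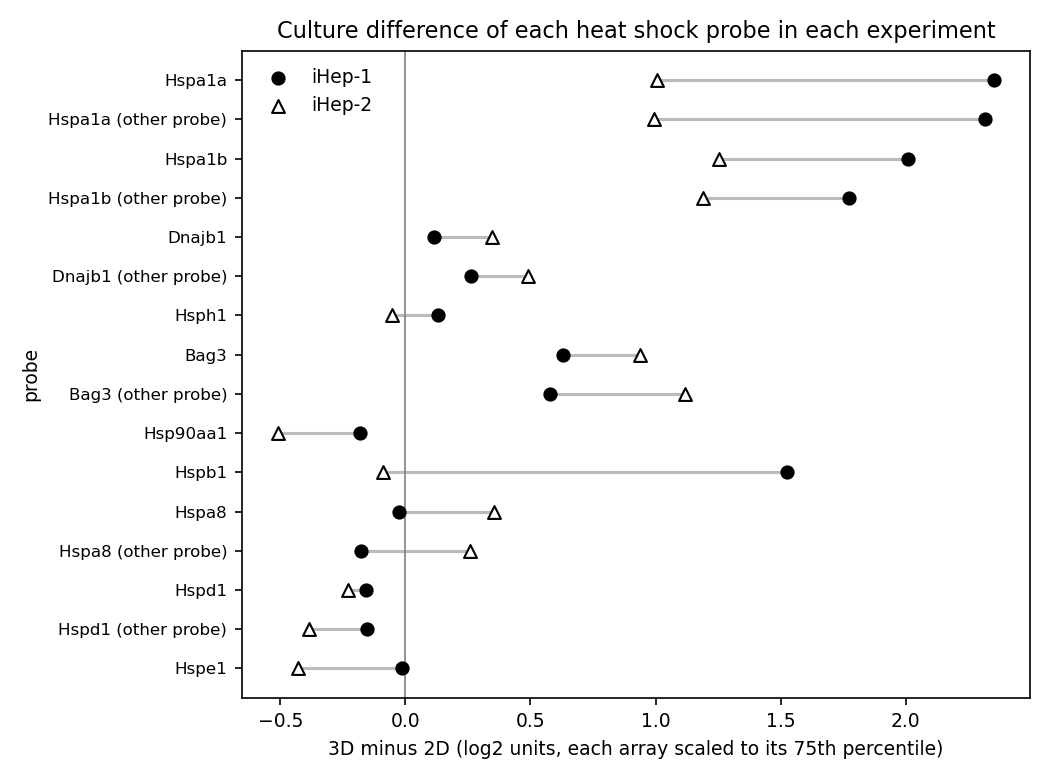
Log2 difference of 3D from 2D for each of the 16 heat shock probes in iHep-1 (filled circles) and iHep-2 (open triangles), each array scaled to its 75th percentile; lines join the preparations. The Hspa1a and Hspa1b probes lie at 0.99 or above in both preparations, Hspb1 at 1.52 in iHep-1 and -0.09 in iHep-2, and the mitochondrial probes below 0.

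Counted over the set, 4 of 10 members were higher in 3D in both preparations, beside 33.2% of all genes tested, and 3 were lower in both, beside 33%. The 3 members of opposite sign stood beside 33.8%. These shares are near the background. With normexp, 5 members were higher in both and 3 lower, beside 30.3% and 29.1% of all genes. Under quantile normalization and in the authors' series table, 5 were higher and 2 lower, beside 29.2% and 36.6% in the former. With spike-in scaling, 2 were higher (Hspa1a and Hspa1b) and 7 lower, beside 2.46% and 75.5%. With the 75th percentile and the tested probes, non-overlapping cultures were seen in 1 member with 3D higher, beside 19.8% of all genes. They were seen in 3 with 3D lower (Hsp90aa1, Hspd1 and Hspe1), beside 21.5%, again near the background. With normexp and under quantile normalization 2 members had 3D higher (Hspa8 and Bag3), beside 19.5% and 16.8%. No member was at least 1 log2 unit lower in both preparations, as were 2.13% of all genes (350), whereas with spike-in scaling Hsp90aa1 and Hspe1 were, as were 3783 genes (23%). By limma, 0 of 16450 genes passed an adjusted p of 0.05 (0% in each direction), and at an unadjusted p of 0.05 there were 667 genes higher (4.05%) and 490 lower (2.98%), none of them a member. With the preparation as a block, which pairs the arrays, 1373 genes were higher (8.35%) and 805 lower (4.89%) at an unadjusted p of 0.05. Hspa1a, Hspa1b and Bag3 were among the higher ones, with 95% intervals of 0.37 to 2.99, 0.71 to 2.55 and 0.067 to 1.501. After adjustment over all genes none of the 3 passed (limma with the block, adjusted p = 0.347, 0.288 and 0.368). The median log2 difference was 0.20 over the 10 members and 0.02 over all genes tested. It was 0.72 over the 7 stress-inducible cytosolic genes, 0.17 for Hspa8 alone and -0.21 over the mitochondrial pair. The median of the 7 is the value of Hspb1. It was 0.043 without the 3D array of iHep-1, 0.39 without the 2D array of iHep-2, 1.02 without the 3D array of iHep-2 and -0.48 with spike-in scaling. Leaving out the 3D array of iHep-1 brought the members' median to 0.03, and leaving out the 2D array of iHep-1 brought it to 0.30. Without the 2D array of iHep-2 it was 0.12.

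Between the preparations, the inducible HSP70 genes again had the largest mean differences of the set, and iHep-1 was the higher. Hspa1a was 3.79-fold higher in iHep-1 than in iHep-2 in 2D and 9.66-fold higher in 3D, from the levels given above, and the preparations did not overlap. The mean log2 difference, iHep-2 minus iHep-1, was -2.60 ± 0.94 (SE), with a 95% interval from -5.20 to 0.01 (limma, adjusted p = 0.397). Hspa1b was 3.99-fold higher in iHep-1 in 2D and 6.74-fold in 3D, with a mean of -2.38 ± 0.87 (SE; limma, adjusted p = 0.406). Both genes were thus at least 1 log2 unit lower in iHep-2 in both cultures, as were 5.74% of all genes. The fit above leaves culture out. With culture as a block, the 95% intervals were -3.91 to -1.29 for Hspa1a and -3.29 to -1.46 for Hspa1b. Neither passed after adjustment (limma with the block, adjusted p = 0.110 and 0.076). Leaving out 1 array at a time, without the block, the mean for Hspa1a ran from -3.77 to -1.42. These were the fits without the 2D array of iHep-1 and without its 3D array, in that order. For Hspa1b it ran from -3.38 to -1.37.

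Hspb1 was lower in iHep-2 by -0.12 in 2D and -1.73 in 3D, and Dnajb1 by -0.36 and -0.13. With Hspa1a and Hspa1b, these were the 4 members whose preparations did not overlap with iHep-2 lower (tested probes), beside 22.6% of all genes. The second Dnajb1 probe differed by -0.16 in 2D and 0.07 in 3D, and by it the preparations overlapped. With spike-in scaling 3 members were left, without Dnajb1, beside 6.16% of all genes. In the authors' series table there were 5, with Bag3, beside 32.2%. Bag3 differed by -0.79 in 2D and -0.48 in 3D, with the 3D level of iHep-2 above the 2D level of iHep-1. No member was higher in iHep-2 without overlap, beside 19% of all genes, or by at least 1 log2 unit in both cultures, beside 5.12%. The mean differences of Hspa8, Hsph1, Hsp90aa1, Hspd1 and Hspe1 lay between -0.10 and 0.20, each smaller than its SE. By limma, 21 genes were higher in iHep-2 (0.128%) and 33 lower (0.201%), and no member was among them. At an unadjusted p of 0.05 there were 919 genes higher (5.59%) and 1163 lower (7.07%), again with no member. With culture as a block, 2923 of 16450 genes were under an unadjusted p of 0.05, counting both directions. Hspa1a and Hspa1b were among them (limma with the block, unadjusted p = 0.0071 and 0.0031), and no other member was.

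The range of a gene over the 4 arrays exceeded 3 log2 units for Hspa1a and Hspa1b and for 10.1% of all genes. It exceeded 1 log2 unit also for Hspb1 and Bag3, which makes 4 of 10 members beside 40.7% of all genes. The other 6 ranged from 0.13 (Hsph1) to 0.55 (Hsp90aa1). The median range was 0.51 over the members and 0.82 over all genes.

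Likeness of pattern was measured as the root mean square distance between centred levels over the 4 arrays. The genes nearest to Hspa1b were F5, coagulation factor V, at 0.09, Pramel13 at 0.13, Adh7 at 0.15, Il12rb1 at 0.15, and Hspa1a at 0.19. Of these, Pramel13 was well above background on 2 arrays and Adh7 on 3, so part of their pattern is of signals not well above background. For Hspd1, the nearest were Spire1, Plekha3, Sart3, 2810006K23Rik and Frs2, at 0.01 to 0.02. Hspe1 was 0.09 from Hspd1 and ranked 656 of 16449, and 940 genes lay within 0.1 of Hspd1. With 4 arrays, such distances describe these samples alone.

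The scaling of the arrays bore on several signs. Hspa1a and Hspa1b were above 0 and Hsp90aa1, Hspd1 and Hspe1 below 0 in their mean difference under all 5 scalings tried, and the other 5 members turned under at least 1. The 75th percentile of the signal was between 399 and 616, and 23061 to 24411 of 41174 probes were well above background. The 6 spike-in control probes had median log2 signals of 8.15 and 10.2 in 2D and 3D of iHep-1 and of 8.88 and 8.83 in iHep-2, so the 3D array of iHep-1 stood apart in them. Scaling to these controls moved the median of all genes to -1.18, from 0.02 with the 75th percentile. Under it, Hspa1a differed by 0.53 in iHep-1 and 0.43 in iHep-2, and Hspa1b by 0.18 and 0.68. Since this scaling shifts all genes of an array alike, the distance of a member from the median of all genes is the same under it by construction. Which scale fits the amount of RNA per cell was not tested.

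**Figure D3:**
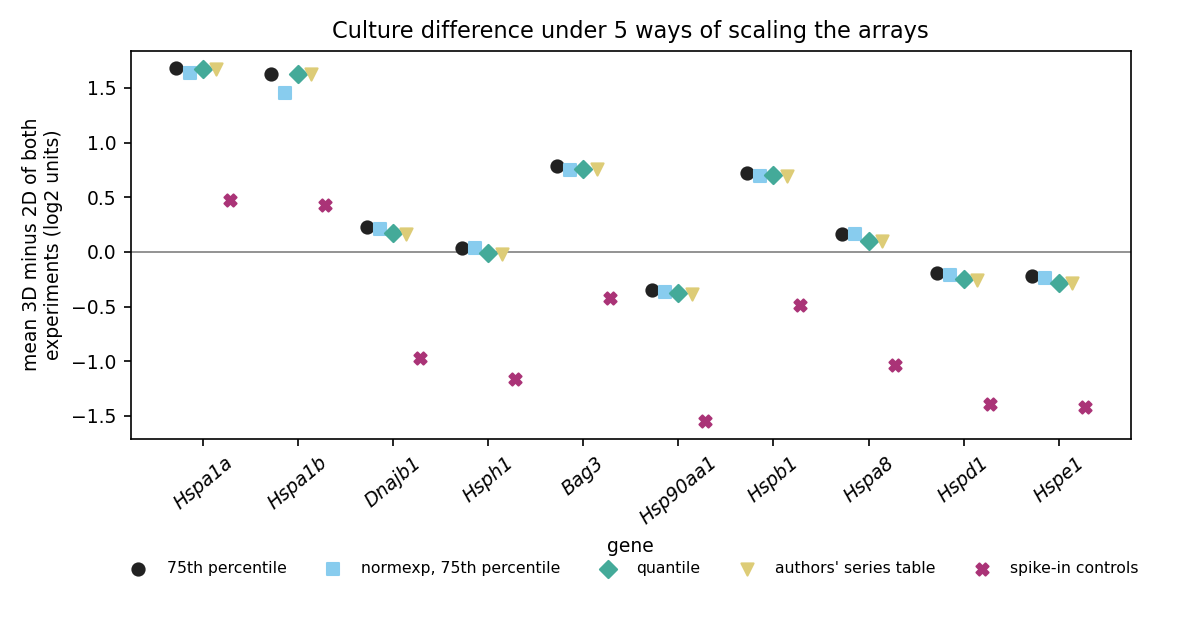
Mean log2 difference of 3D from 2D of each heat shock gene under 5 scalings of the arrays: the 75th percentile (black), the same after normexp background correction (light blue), quantile normalization (green), the authors' series table (yellow) and spike-in control probes (purple). Under spike-in scaling Hspa1a and Hspa1b remain above 0, at 0.48 and 0.43, and the other 8 genes lie below 0.

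Other genes of the chaperone network were described from lists by role, with 90 of 95 genes tested. Of these, 30 were higher in 3D in both preparations, 35 lower in both and 25 of opposite sign, close to the shares of all genes given above. None passed the test (limma, lowest adjusted p = 0.684), and 3 were at least 1 log2 unit higher in both preparations. The median difference was -0.03, and -1.23 with spike-in scaling, under which the median of each list was negative.

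The list of heat shock factors also holds Hsbp1 and Hsf2bp, which are not factors themselves. Of its 5 tested genes, 2 were higher in both preparations (Hsf2 and Hsf4) and 2 lower in both (Hsbp1 and Hsf2bp). Hsf1, the main factor of the response, was at 4.44 and 4.18 in 2D and 3D of iHep-1 and at 4.18 and 4.79 in iHep-2. Its sign was thus opposite in the preparations (-0.26 and 0.60), unlike that of Hspa1a. Hsf4, a factor known from the lens, differed by 0.88 and 1.27, and Hsbp1, which binds and restrains HSF1, by -0.64 and -0.24. For Hsf2bp, not well above background on either 3D array, 2D was at least 1.49-fold brighter.

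In the HSP70 family and its exchange factors, 4 of 14 were higher in both preparations and 6 lower. Hspa12a, a distant relative, differed by 1.85 and 1.25, with 1 of its 2D arrays well above background. Hspa4l, an HSP110 protein, differed by 0.84 and 0.38, and Hspa14, part of a ribosome-bound complex, by -0.35 and -0.69. Its relative Hspa4 was of opposite sign (0.11 and -0.23). Among 12 cytosolic J-domain proteins, 3 were higher in both and 6 lower. Dnajb4, a near relative of Dnajb1, differed by 0.78 and 0.85. Dnajb2 differed by 0.55 and 0.98 and Dnajc2, the J-domain partner of Hspa14, by -0.54 and -0.63.

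HSP90 and its cochaperones had 2 of 11 genes higher in both and 3 lower. Fkbp5, a cochaperone of steroid receptors that glucocorticoids induce, differed by 1.09 and 1.11. The constitutive Hsp90ab1 differed by -0.02 and 0.15. Ppid, a cyclophilin, differed by -0.20 and -0.12, and Unc45a, a myosin chaperone, by 0.17 and 0.03. Of 6 tested small heat shock proteins, 3 were higher in both and 1 lower. Hspb6, a muscle form, was dim and differed by 1.28 and 1.98. Hspb8, the partner of Bag3 in selective autophagy, differed by 0.68 and 0.60. Hspb11 differed by -0.45 and -0.29. Cryab had opposite signs, 0.60 and -1.80, as Hspb1 did.

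The cytosolic chaperonin TRiC and prefoldin had 11 of 14 genes lower in both preparations, beside 33% of all genes, and a median of -0.22. In this list 1 gene was higher in both, beside 33.2%. Some differences were small, such as those of Cct3 (-0.007 and -0.030). Cct2, a TRiC subunit, differed by -0.31 and -0.50, Pfdn4 by -0.42 and -0.76 and Pdcl3 by -0.30 and -0.36. Among 14 other mitochondrial chaperones and proteases, 4 were higher and 5 lower. Hspa9, the mitochondrial HSP70 that works beside HSP60, differed by -0.45 and -0.73, the same sign as Hspd1 and Hspe1. Htra2 differed by -0.38 and -0.51, the protease subunit Clpx by 0.53 in each, and Trap1, the mitochondrial HSP90, by -0.04 and 0.37. Chaperones of the endoplasmic reticulum had 11 of 14 genes higher in both, beside 33.2% of all genes, 1 lower, beside 33%, and a median of 0.27. Dnajc3 differed by 0.63 and 0.93, Creld2 by 0.67 and 0.59 and Sdf2l1 by 0.88 and 0.39, whereas Hspa5, or BiP, had opposite signs (0.11 and -0.30).

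**Figure D4:**
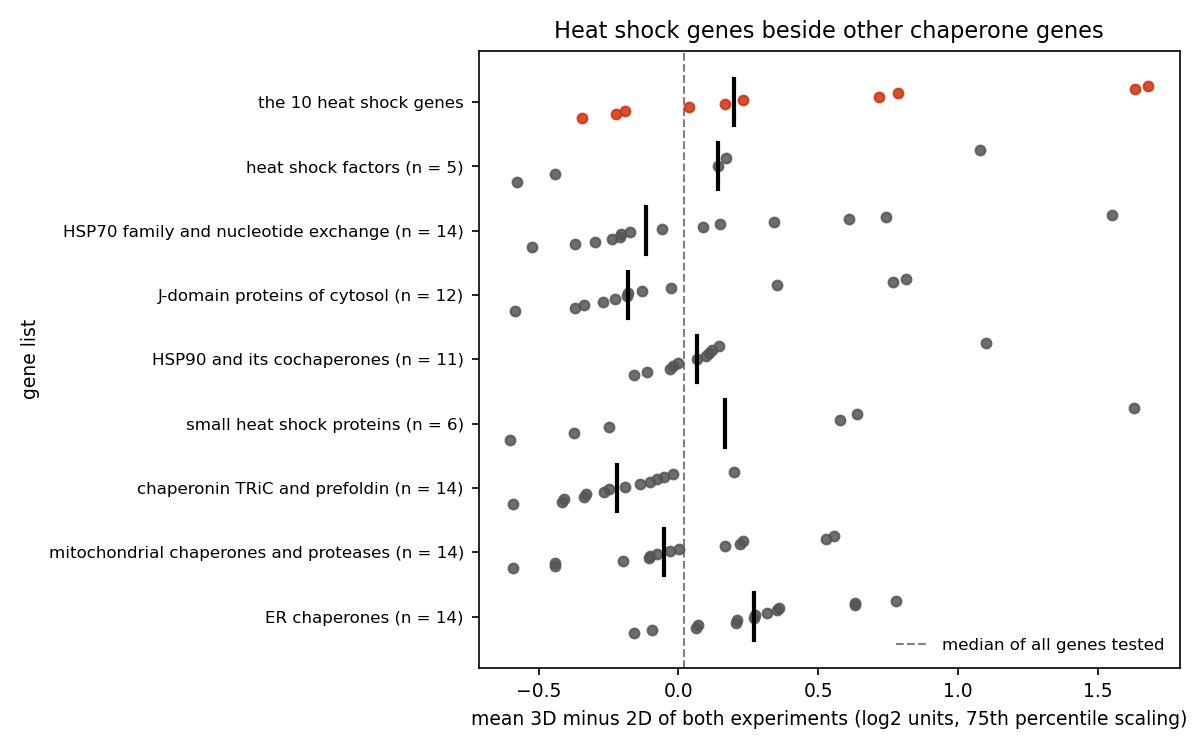
Mean log2 difference of 3D from 2D (75th percentile scaling) for each heat shock gene (red) and each tested gene of 8 chaperone lists (grey); black bars are list medians and the dashed line is the median of all genes. The heat shock genes spread from -0.35 to 1.68, while TRiC and prefoldin have a median of -0.22 and ER chaperones 0.27; with spike-in scaling every list median is negative.

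Markers of cell types were read beside these values. Hepatocyte markers were present, with Alb at 9.11, 8.94, 8.82 and 9.57 in 2D and 3D of iHep-1 and then of iHep-2, and 9 of 10 were tested. Their summed level was 10.2, 10.04 and 9.78 on the first 3 of these arrays and 11.0 in 3D of iHep-2, so its order was not that of Hspa1a. This sum was carried mainly by Alb, Trf and Apoa1, and single markers differed. Of the 9 tested, 4 were higher in 3D in both preparations, 0 were lower in both and 5 were of opposite sign. Foxa2 was well above background on 1 array of each culture. Of 10 fibroblast markers, 5 were tested, and Col1a1, Col3a1, Thy1, Dcn and Lum were not well above background on enough arrays. The summed fibroblast level was 2.35 and 2.31 in 2D and 2.91 and 2.93 in 3D of iHep-1 and iHep-2. This sum was carried by Pdgfra, at 2.15 and 2.25 in 2D and 2.80 and 2.91 in 3D. Col1a2 (1.23 and 0.22) and Fap (2.80 and 0.26) were, like Pdgfra, higher in 3D in both preparations. Pdgfrb (-1.08 and -3.33) and Twist2 (-0.08 and -1.06) were lower in both. In 3D, Pdgfrb, Twist2 and Fap were each well above background on 1 array only, and Fap also in 2D. Biliary markers, 5 of 5 tested, summed to 4.005 and 4.66 in iHep-1 and 5.55 and 4.91 in iHep-2. Leukocyte markers, 4 of 6 tested without Ptprc and Adgre1, summed to 0.71 and 0.39 in iHep-1 and -1.59 and -2.05 in iHep-2. The sum was carried by Lyz2, at 0.58 and 0.13 in iHep-1 and -3.06 and -5.27 in iHep-2, higher in iHep-1 as Hspa1a and Hspa1b were. Csf1r was higher in iHep-2, by 3.69 in 2D and 0.90 in 3D, with 1 of its 2D arrays well above background. Cd68 differed, iHep-2 minus iHep-1, by -0.15 in 2D and -1.68 in 3D, and Cd3e by -0.35 and 0.92. Of 5 endothelial markers, 1 was tested, Cdh5, and it was not well above background in 3D. The part of these cells in the differences of the heat shock genes was not tested, and fewer cells of a type cannot be told apart from less RNA per cell.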

How the data were processed

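Total RNA was amplified, labelled with Cy3 and hybridised to 1-colour Agilent arrays of 1 design, 1 array per sample, per the labels. The scanner files deposited by the authors hold linear intensity values, among them a background-corrected processed signal, with spot flags. Feature Extraction is named as 10.7.1.1 per the file headers, whereas the submitters' processing notes name 9.5.1.1. A series table of the authors also holds intensity values. Its values ranked the probes almost as the processed signal of the same arrays did (Spearman correlations of 0.99998 to 0.99999). A rank correlation cannot show whether the relation was linear. The median was 26.3 on both arrays of iHep-1 and 22.6 on both arrays of iHep-2, so it was equal within a preparation and differed between preparations. How the series table was centred beyond that stays unknown.

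From the deposited files, log2 of the processed signal was computed and the array's own 75th percentile (noncontrol spots) was subtracted. Spots with outlier flags were left out (72 to 85 per array); none was saturated. Of 41174 probes, 24844 were named by accession and 7855 by symbol through a RefSeq gene table (GRCm38.p6), and 8475 kept the file's name. Probes well above background on at least 2 arrays were kept, with the brightest probe per gene. Cultures and preparations were compared by limma 3.58.1 (R 4.3.3; two-sided, lmFit and eBayes, 2 residual and 1.58 prior degrees of freedom) with Benjamini-Hochberg adjustment over all 16450 genes and a threshold of 0.05. The numbers pair the arrays, since each marks a preparation per the design text; deviations of same-numbered arrays correlated across genes (r = 0.66). This step was first tested on simulated data. Named genes are the 10 members, 8 fixed chaperone genes and, per list, up to 3 genes of the same sign in both preparations with the largest smaller difference. The members and lists were chosen with earlier results of these data known. Alternatives changed background correction, scaling, filter, probe choice, block, prior and arrays, 1 at a time. The fits without 1 array had no block, so their means mix differences between cultures with those between preparations.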

Additional observations from a re-analysis of the deposited data

Results flagged for a closer look

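For 3 members the difference between cultures had opposite signs in the preparations, and this was not tested, since each preparation gave 1 array per culture. Hspb1 differed by 1.52 log2 units, 3D minus 2D, in iHep-1 and by -0.088 in iHep-2. Hspa8 differed by -0.024 in iHep-1 and by 0.36 in iHep-2, and Hsph1 by 0.13 and -0.052. Opposite signs were seen in 33.8% of all genes tested. Those of Hspa8 were seen with the 75th percentile alone, and its differences had the same sign under the 4 other scalings. For Hspa8 both probes had opposite signs in the preparations, and Hspb1 and Hsph1 have 1 probe each.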

How the results depend on the processing

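The differences between cultures of the 10 members kept their sign in 121 of 130 alternative values. Those of Hspa1a and Hspa1b kept it in 26 of 26. These counts include alternatives that could not change a member's difference, namely the block, the prior and the changed filters on dim probes. Under them the values repeat the main ones by construction. In the fits with all arrays, no member passed between cultures (limma, lowest adjusted p = 0.288). The sign of Hsph1 reversed to -0.013 under quantile normalization and -0.015 in the authors' series table, and ran from -0.024 to 0.104 without 1 array. Spike-in scaling reversed Hspa8 (-1.04), Hsph1 (-1.16), Dnajb1 (-0.97), Hspb1 (-0.48) and Bag3 (-0.42). Without 1 array, Hspb1 ran from -0.15, without the 3D array of iHep-1, to 1.58. Between preparations, spike-in scaling reversed Hspd1 (0.033) and Hspe1 (0.037), and the series table reversed Hspa8 (-0.037) and Hsph1 (-0.11). The median difference of all genes, iHep-2 minus iHep-1, was -0.15 in the series table and -0.0049 in the main fit. The differences and calls between preparations from the series table include that shift. Without 1 array, Hsph1 ran from -0.029 to 0.102, Hsp90aa1 from -0.054 to 0.456, Hspa8 from -0.046 to 0.309, Hspd1 from -0.211 to 0.019 and Hspe1 from -0.307 to 0.123. The members' median moved to 0.14 under quantile normalization, 0.13 in the series table and -1.003 with spike-in scaling, and ran from 0.027 to 0.303 without 1 array. The median of the chaperone lists moved to -1.23 with spike-in scaling and ran from -0.112 to 0.0061 without 1 array.

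The 54 genes that limma called between preparations became 100 with normexp, 126 with quantile normalization, 136 in the series table, 3 with probes well above background on all arrays, 31 with a trended robust prior, 335 with spike-in scaling and 0 to 0 without 1 array. Between cultures, spike-in scaling gave 289 calls, none of them a member. Under this scaling every member had the same SE, 0.993 between cultures and 1.16 between preparations. Its fit thus did not use each member's own spread, and its 289 and 335 calls are not comparable with those of the main fit. With the replicate block, the paired fit, there were 0 calls between cultures and 303 between preparations, and the adjusted p between cultures was 0.347 for Hspa1a, 0.288 for Hspa1b and 0.368 for Bag3. It changed no member's call. The cause of these shifts was not tested.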

Other observations

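Before any scaling, the tested Hspa1a probe had processed signals of 2028 and 11767 in 2D and 3D of iHep-1 and of 630 and 818 in iHep-2. That of Hspb1 had 2843 and 9293 in iHep-1 and 3082 and 1877 in iHep-2. The signals of Hsp90aa1 were 61488 and 61598 in iHep-1, nearly equal, and 93243 and 42397 in iHep-2.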
